A study of Mus musculus with 2 samples.

Results

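The orexin, histamine and adenosine arousal genes are 8 rows of the deposited expression table, taken by gene symbol out of 31053. They are the orexin receptors Hcrtr1 and Hcrtr2, the histamine receptors Hrh1, Hrh2 and Hrh3, the adenosine A1 receptor Adora1, and the adenosine-clearing enzymes Ada and Adk. All 8 were listed, and 6 reached the floor used here, a mean over both libraries of 0.0461 counts per 10000, which is the median of genes above 0. Hcrtr1 and Ada lay below it. The study isolated nuclei from medial prefrontal cortex of male mice killed at zeitgeber time 20, late in the dark phase of a cycle with 12 h of light. Tissue of 4 Npas2 knockout (KO) mice was pooled into 1 library, and tissue of 4 wild-type (WT) littermates into another. Neither library had a replicate, so no difference between them carries a test. The sources used here do not give the allele, the deleted part of Npas2 or the age of the mice.

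Orexin peptides from the lateral hypothalamus and histamine from the tuberomammillary nucleus are released widely in the forebrain during waking and promote arousal. Orexins act on the G protein-coupled receptors HCRTR1 and HCRTR2, while histamine acts mainly through Gq at HRH1, Gs at HRH2 and Gi at HRH3, the last also being a presynaptic autoreceptor that limits histamine release. Adenosine builds up outside cells during waking and promotes sleep in part through the Gi-coupled A1 receptor, and adenosine kinase (ADK) and adenosine deaminase (ADA) clear it to AMP and to inosine.

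The KO-labelled library held 7161 nuclei at an estimated mean of 3274 unique molecular identifiers (UMIs, single counted transcripts) per nucleus, and the WT-labelled library 5578 nuclei at 4034. Each value is a mean over nuclei, after scaling every nucleus to 10000 counts. The range in parentheses after a value is its 95% interval, which covers counting error only. Npas2 itself stood at 1.39 (1.34 to 1.45) in the KO-labelled library and 1.29 (1.23 to 1.35) in the WT-labelled library. It was thus not lower under the KO label, although counts at a 3' end check nothing if the deletion lies elsewhere in the gene, and every direction given here rests on the labels. The libraries also differed in marker genes of other cell types. Summed over their lists, striatal projection neuron markers stood at 1.29 and 5.28 in the KO- and WT-labelled libraries, oligodendrocyte markers at 2.76 and 8.5, astrocyte markers at 3.64 and 6.56 and microglia markers at 2.16 and 3.53, and all 28 of these genes that reached the floor were lower in the KO-labelled library. Markers of olfactory bulb neurons and neuroblasts stood at 12.6 and 8.13, with 5 of 6 higher. No listed marker was at 0 in either library.

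Promoter sequence was searched because NPAS2 belongs to a family of bHLH-PAS factors that bind E-box elements. RefSeq (GRCm38.p6) gave 16 windows of 300 bases for the 8 genes, each from 250 bases before a transcription start site to 50 after it. The E-box CACGTG, which reads the same on both strands, was in 0 of them, against 7.15% of all 32851 windows. The related element CACGTT, searched on both strands, was in 1 of the 16, an Adora1 window, against 4.68% of all windows. Some windows of the same gene overlap, as those of Hrh2 do. Counted by gene, CACGTG was in 0 of 8 against 8.09% of all genes, and CACGTT in 1 of 8 against 5.44%. The 6 letters of the motifs differ, so a match to one is never a match to the other. A match is a description of the letters, and its absence says only that they are not in this window. The Adora1 window is shown for that match, in capitals, whose first base lies at position -129 from the start site. The Hcrtr2 window is shown for comparison, since Hcrtr2 had the most uneven cluster levels of the genes above the floor, and it holds neither motif.
Adora1 promoter window (chr1:134235408-134235707, minus strand): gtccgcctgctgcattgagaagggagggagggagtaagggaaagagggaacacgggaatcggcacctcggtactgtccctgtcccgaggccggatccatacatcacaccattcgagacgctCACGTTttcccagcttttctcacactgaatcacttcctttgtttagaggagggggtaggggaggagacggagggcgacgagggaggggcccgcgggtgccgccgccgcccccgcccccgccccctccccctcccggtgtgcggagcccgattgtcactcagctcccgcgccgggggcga
Hcrtr2 promoter window (chr9:76323574-76323873, minus strand): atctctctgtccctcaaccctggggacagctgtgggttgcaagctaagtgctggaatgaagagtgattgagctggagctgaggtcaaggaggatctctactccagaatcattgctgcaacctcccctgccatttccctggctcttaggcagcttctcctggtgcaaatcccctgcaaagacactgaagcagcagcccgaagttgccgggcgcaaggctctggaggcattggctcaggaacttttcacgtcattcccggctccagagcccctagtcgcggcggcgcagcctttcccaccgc
The Adora1 window is 66% G and C with 26 CpG sites and the Hcrtr2 window 58% with 10, against medians of 52.7% and 7 over all windows. All 8 genes had a window with more CpG sites than that median, although Hrh1 also had windows with 5 and 4 sites. The share of all genes with such a window was not computed, and genes with several windows reach it more easily.

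Levels across cell types were read from the 23 clusters made by the authors, which pool both libraries. A cluster was called by its marker genes, a marker counting as raised where it was at least 2-fold above the median of all clusters. Cluster 12 (395 nuclei), led by Egfr, Pde11a and Adarb2, was Vip/Lamp5-like with 6 of 6 markers raised, cluster 13 (375 nuclei) Sst-like with 3 of 4 and cluster 9 (453 nuclei) Pvalb-like with 4 of 4. Clusters 13 and 9 each raised 6 of 6 inhibitory markers, but also 3 of 4 and 4 of 4 layer 2/3 ones. Clusters 2 (1184 nuclei) and 16 (241 nuclei) were layer 6-like with 5 of 7 and 7 of 7 listed markers raised, although olfactory receptor genes such as Olfr111 led cluster 16. Cluster 15 (243 nuclei), led by Gm26883, Tshz2 and Mirt1, was excitatory-like with 4 of 7. Cluster 14 (270 nuclei), led by Bnc2, Gm35552 and Slco1c1, raised 8 of 8 astrocyte markers and 6 of 7 endothelial and mural ones. It also raised 6 of 8 microglia, 5 of 8 oligodendrocyte, 5 of 7 oligodendrocyte precursor and 5 of 10 striatal projection neuron markers. It is called astrocyte-like here, but holds vascular signal and signal of these other types as well. Cluster 17 (202 nuclei), led by Olfr111, Vmn1r209 and Olfr115, raised 4 of 9 olfactory bulb markers, with Cdhr1 among its leading genes, and was left unnamed. The clusters were made from these nuclei, so the levels are a description and were not tested.

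**Figure D1:**
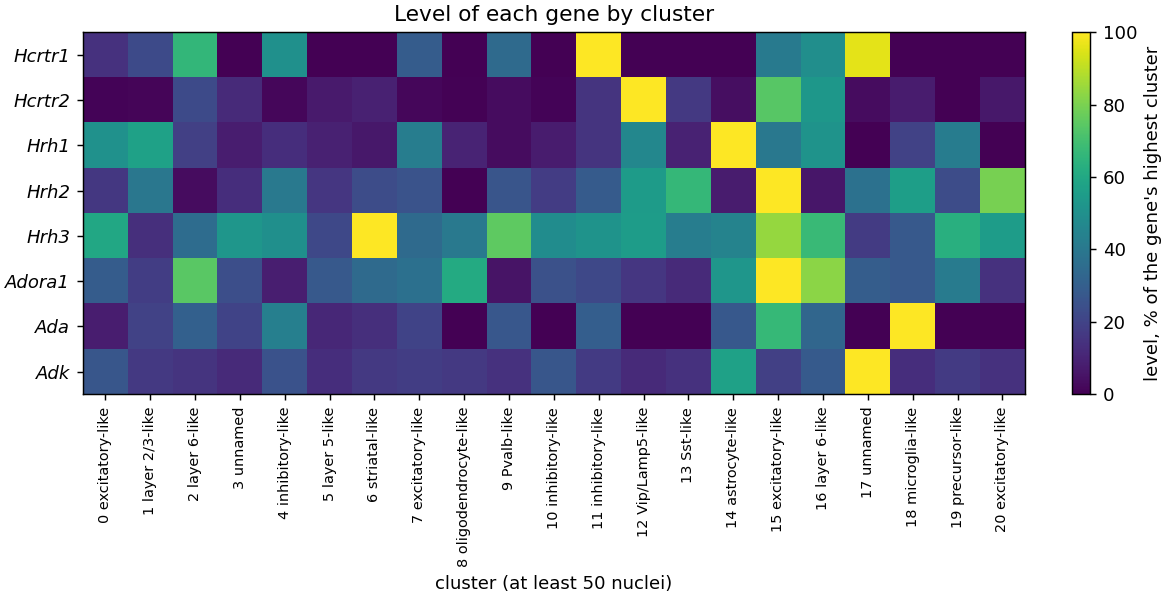
Level of each of the 8 genes in the 21 clusters with at least 50 nuclei, as a percent of that gene's highest cluster (colour scale from 0 to 100). Hcrtr2 peaks in cluster 12, Hrh1 in cluster 14, Hrh3 in cluster 6, Adk in cluster 17, and Hrh2 and Adora1 in cluster 15.

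Hcrtr2 (ENSMUSG00000032360, mm10 chromosome 9, 76225880 to 76323856, minus strand), the receptor that binds orexin A and orexin B, was concentrated in a few neuronal clusters. Its level was 1.2 (0.987 to 1.45) in Vip/Lamp5-like cluster 12, 0.891 (0.659 to 1.18) in excitatory-like cluster 15 and 0.635 (0.477 to 0.829) in layer 6-like cluster 16. Neighbours in this order had overlapping intervals, while those of clusters 12 and 16 did not overlap. The other layer 6-like cluster, cluster 2, stood at 0.272 (0.221 to 0.332), below the interval of cluster 16, and held 18% of the signal. Clusters 12, 15 and 16 together held 47.3% of the Hcrtr2 signal and 6.9% of the nuclei. Unnamed cluster 21, with 37 nuclei, stood at 0.702 (0.312 to 1.36). It raised 8 of 8 oligodendrocyte markers, 4 of 7 excitatory ones and 4 of 7 listed layer 6 ones, and so holds mixed signal.

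The interneuron clusters differed among themselves in Hcrtr2. Sst-like cluster 13 stood at 0.201 (0.127 to 0.303) and Pvalb-like cluster 9 at 0.0419 (0.014 to 0.0964), both below the interval of the Vip/Lamp5-like cluster. The largest excitatory clusters were near the bottom of the order. Layer 2/3-like cluster 1 stood at 0.0166 (0.0078 to 0.031) and excitatory-like cluster 0 at 0.0104 (0.00416 to 0.0214), on about 12 and 9 UMIs, with 26.8% of all nuclei between them. Non-neuronal clusters 8, 14, 18 and 19 held 1.81% of the signal, and oligodendrocyte precursor-like cluster 19 was listed at 0, where 3 UMIs would give 0.0724. Cluster 19 raised 7 of 7 precursor markers and also 8 of 8 oligodendrocyte and 5 of 8 astrocyte ones.

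Hcrtr1 (ENSMUSG00000028778, mm10 chromosome 4, 130130217 to 130139359, minus strand), the receptor that prefers orexin A, was close to the detection limit. It rested on about 7 UMIs in the KO-labelled library and 16 in the WT-labelled library, and was listed in 10 of 23 clusters. In 7 of those the value equalled 1 UMI in 1 nucleus, or the same ratio of UMIs to depth. Layer 6-like cluster 2 held the largest part, 25.6% of the signal at a level of 0.0131 (0.00399 to 0.0315). Inhibitory-like cluster 11, led by Ano1, Gm29478 and Sox6, had the highest level, 0.0197 (0.00271 to 0.0681), on about 3 UMIs. No order of levels could be read at this depth.

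Hrh1 (ENSMUSG00000053004, mm10 chromosome 6, 114397936 to 114483296, plus strand), the Gq-coupled receptor, was highest in astrocyte-like cluster 14 at 0.325 (0.168 to 0.567), on about 14 UMIs. Layer 2/3-like cluster 1 stood at 0.186 (0.152 to 0.225), layer 6-like cluster 16 at 0.167 (0.0914 to 0.279) and excitatory-like cluster 0 at 0.165 (0.135 to 0.198). All 4 intervals overlapped. Clusters 0 and 1 held 50.3% of the Hrh1 signal and 26.8% of the nuclei. Layer 6-like cluster 2, at 0.0621 (0.0389 to 0.0941), layer 5-like cluster 5, at 0.030 (0.0136 to 0.0572), and striatal-like cluster 6, at 0.021 (0.00595 to 0.0526), lay below the intervals of clusters 0 and 1. The other 14 clusters of at least 50 nuclei lay between 0 and 0.151.

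Hrh2 (ENSMUSG00000034987, mm10 chromosome 13, 54192129 to 54236180, plus strand), the Gs-coupled receptor, was highest in excitatory-like cluster 15, at 0.336 (0.20 to 0.527). Among clusters of at least 50 nuclei, excitatory-like cluster 20 (52 nuclei, about 6 UMIs) came next at 0.266 (0.0832 to 0.634). Sst-like cluster 13 followed at 0.223 (0.145 to 0.329). These intervals overlapped. Layer 2/3-like cluster 1, at 0.133 (0.105 to 0.166), stood above excitatory-like cluster 0, at 0.0545 (0.0383 to 0.0752), with no overlap. Layer 6-like clusters 2 and 16 were near the bottom, at 0.0114 (0.00313 to 0.0291) and 0.0199 (0.00179 to 0.0793), and held 1.66% of the Hrh2 signal and 11.2% of the nuclei. Microglia-like cluster 18 stood at 0.188 (0.0579 to 0.453) on about 6 UMIs. Oligodendrocyte-like cluster 8 was listed at 0, where 3 UMIs would give 0.0399.

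Hrh3 (ENSMUSG00000039059, mm10 chromosome 2, 180099465 to 180104488, minus strand), the Gi-coupled receptor, had the most even levels of the genes above the floor. It was highest in striatal-like cluster 6 (683 nuclei, led by Mhrt, Sh3rf2 and Prkch, 10 of 10 markers raised), at 0.26 (0.194 to 0.341). Cluster 15 at 0.218 (0.113 to 0.381) and Pvalb-like cluster 9 at 0.196 (0.126 to 0.291) came next, with overlapping intervals. The lowest level among clusters of at least 50 nuclei was 0.0353 (0.0216 to 0.0544), in layer 2/3-like cluster 1. The highest of these clusters was 2.01-fold over their median for Hrh3, 3.88-fold for Hrh2, 3.57-fold for Adora1, 6.01-fold for Adk, 6.69-fold for Hrh1 and 15.4-fold for Hcrtr2.

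**Figure D2:**
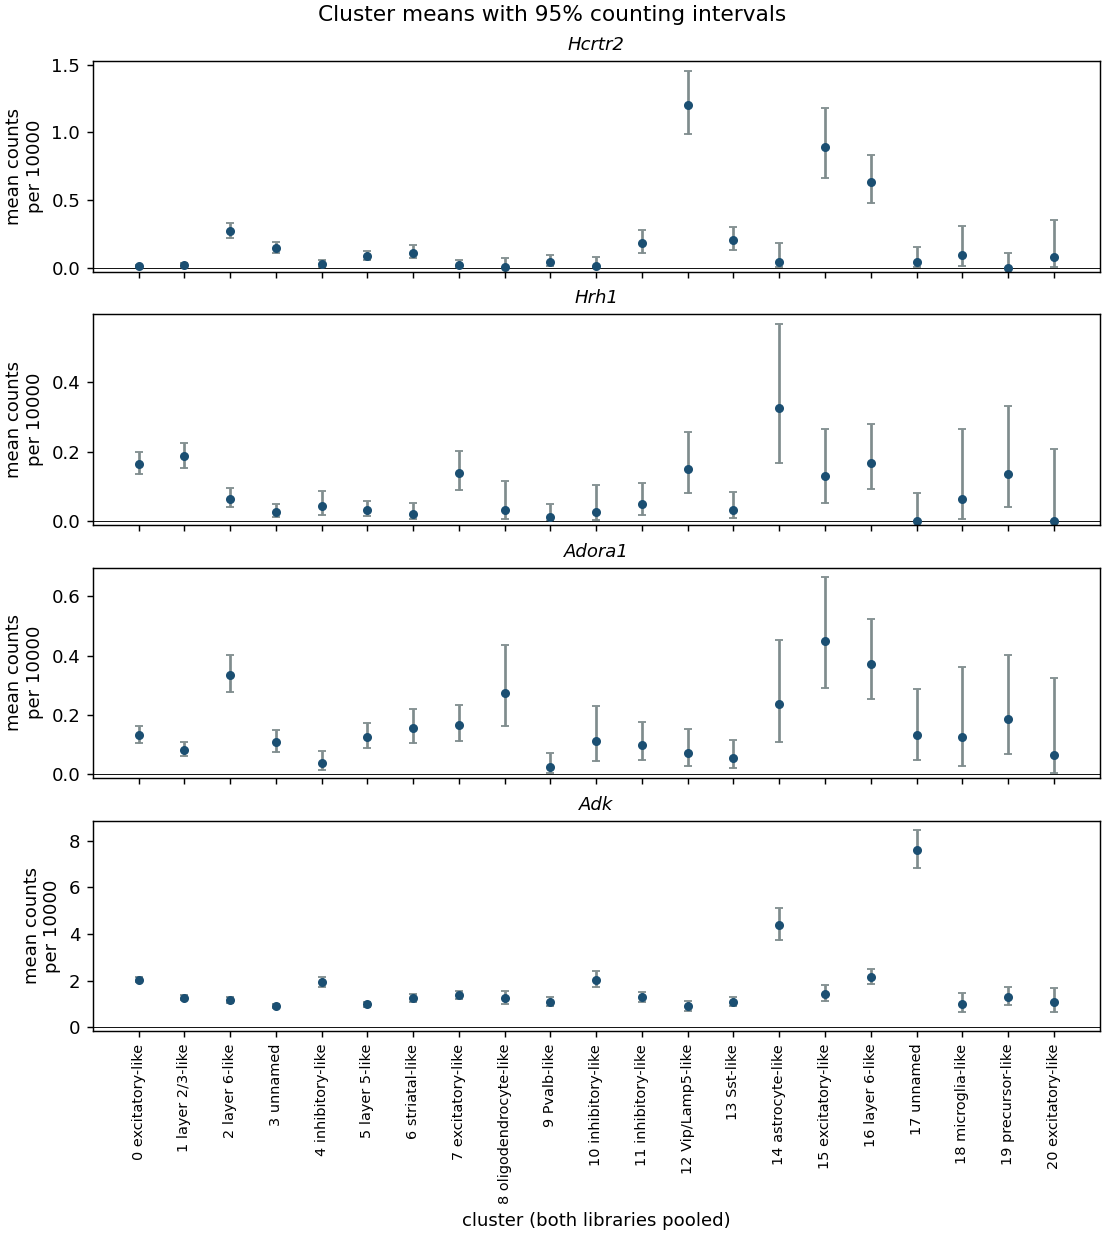
Mean counts per 10000 of Hcrtr2, Hrh1, Adora1 and Adk in each cluster of at least 50 nuclei (points), with 95% counting intervals (bars). Hcrtr2 stands at 1.2 in cluster 12 and 0.891 in cluster 15 with most clusters near 0, and Adk stands at 7.62 in cluster 17 and 4.37 in cluster 14.

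Adora1 (ENSMUSG00000042429, mm10 chromosome 1, 134199223 to 134235431, minus strand) was listed in all 23 clusters. Among those with at least 50 nuclei it was highest in excitatory-like cluster 15, at 0.449 (0.29 to 0.664), and in layer 6-like clusters 16 and 2, at 0.371 (0.252 to 0.525) and 0.335 (0.277 to 0.401), with overlapping intervals. These 3 clusters held 31.6% of the Adora1 signal and 13.1% of the nuclei. Oligodendrocyte-like cluster 8 stood at 0.274 (0.161 to 0.435) and astrocyte-like cluster 14 at 0.237 (0.107 to 0.453), also overlapping with them. The named interneuron clusters were among the lowest, with Vip/Lamp5-like cluster 12 at 0.0714 (0.0273 to 0.152), Sst-like cluster 13 at 0.0532 (0.0195 to 0.116) and Pvalb-like cluster 9 at 0.0238 (0.00479 to 0.0701). The other 13 clusters of at least 50 nuclei lay between 0.0374 and 0.186. Unnamed cluster 21, with 37 nuclei, about 8 UMIs and mixed oligodendrocyte, excitatory and layer 6 markers, stood at 0.571 (0.228 to 1.18).

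Adk (ENSMUSG00000039197, mm10 chromosome 14, 21052574 to 21448569, plus strand) was the best counted of the 8, with about 3970 and 3126 UMIs in the KO- and WT-labelled libraries. Unnamed cluster 17 stood at 7.62 (6.84 to 8.46) and astrocyte-like cluster 14 at 4.37 (3.72 to 5.1). These intervals overlapped neither with each other nor with that of any other cluster. Layer 6-like cluster 16 at 2.16 (1.86 to 2.5), inhibitory-like cluster 10 at 2.04 (1.71 to 2.43) and excitatory-like cluster 0 at 2.02 (1.92 to 2.14) followed, with overlapping intervals. Cluster 10 raised 6 of 6 inhibitory markers and also 6 of 9 bulb and neuroblast ones, with Top2a, Pax6 and Th among its leading genes. Vip/Lamp5-like cluster 12 was lowest of those with at least 50 nuclei, at 0.897 (0.712 to 1.12). Clusters 14 and 17 held 13.7% of the Adk signal, so most of it came from other nuclei.

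Ada (ENSMUSG00000017697, mm10 chromosome 2, 163726584 to 163750239, minus strand) rested on about 22 and 18 UMIs. It was listed in 14 clusters, in 5 of which the value could be 1 UMI. Its highest level, 0.0442 (0.00145 to 0.232) in microglia-like cluster 18 (led by Ikzf1 and Arhgap45), was about 1 UMI. Inhibitory-like cluster 4, which also raised 5 of 9 olfactory bulb markers, held the largest part, 17% of the signal at a level of 0.0191 (0.00451 to 0.0526). As for Hcrtr1, the intervals left no order.

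The 8 genes did not share one pattern over cell types. Over the 21 clusters with at least 50 nuclei, Pearson's r of log2(mean + 0.01) between pairs of them ran from -0.47 (Hrh2 with Adora1) to 0.43 (Hrh1 with Adora1). The clusters come from the same libraries and differ in depth, and these values are a description. The gene most like Hcrtr2 was Nub1 (r = 0.82), followed by the glycine receptor subunit Glra2 (0.77) and Aacs (0.75). For Hrh1 they were Fam26e (0.82), Gm13872 (0.77) and Wnt4 (0.73), and for Hrh2 Aldh18a1 (0.77), Syt14 (0.77) and Has1 (0.77). For Hrh3 the first was the dopamine D1 receptor Drd1 (0.67), ahead of Ninj1 (0.67) and Map3k13 (0.66). For Adora1 they were Tmem159 (0.77), Srebf2 (0.77) and the G protein gamma subunit Gng12 (0.74), and for Adk Kctd5 (0.85), Fam184a (0.73) and Slc38a3 (0.71). The barely detected Hcrtr1 was most like Afg3l2 (0.71), Prdm4 (0.70) and Cdhr1 (0.68), and Ada most like Aldh3a2 (0.73), Dcun1d1 (0.72) and Ppp4r3a (0.70). By Spearman's rank correlation Nub1, Gm13872 and Aldh3a2 were the only ones of these genes that stayed among the first 3.

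Between the libraries, Adora1 was lower and Hcrtr2 and Adk were higher under the KO label. The other 5 genes had counting intervals of the ratio that included 1. The share of all genes whose interval left out 1 was not computed. Whether these genes differ from other genes in this respect was therefore not tested. Adora1 stood at 0.122 in the KO-labelled library and 0.181 in the WT-labelled library, 1.49-fold lower (1.24 to 1.78) on about 285 and 407 UMIs. Adk stood at 1.69 and 1.39, a ratio of 1.22 (1.15 to 1.29). Hcrtr2 stood at 0.153 and 0.124, a ratio of 1.23 (1.02 to 1.49), with a lower limit close to 1. Scaled without mitochondrial genes and Malat1, its log2 ratio was 0.24 in place of 0.28. Whether its interval leaves out 1 thus depends on the scaling. With 1 library per genotype these intervals compare the libraries, not the genotypes.

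**Figure D3:**
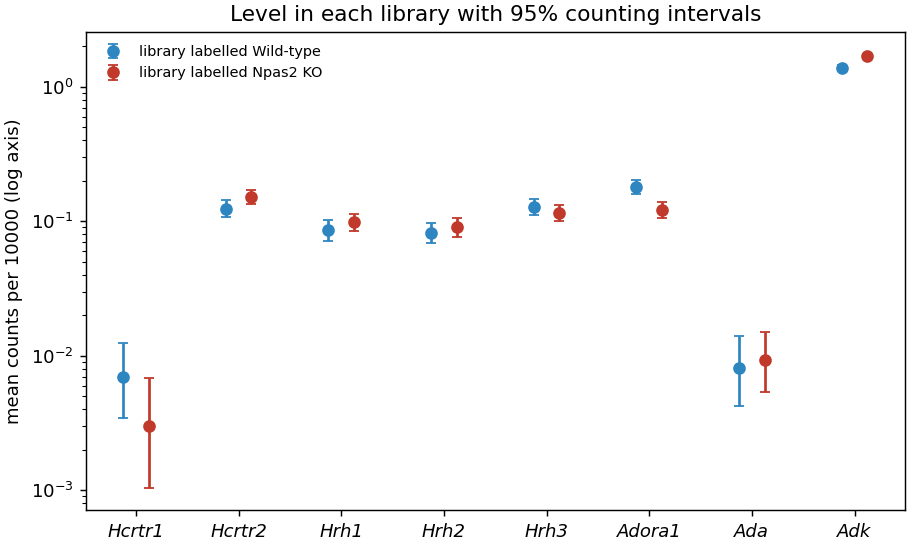
Mean counts per 10000 of each gene (log axis) in the library labelled wild-type (blue) and the library labelled KO (red), with 95% counting intervals as bars. The intervals of Adora1 (0.122 in KO, 0.181 in WT) and of Adk (1.69 in KO, 1.39 in WT) do not overlap between the libraries, and those of Hcrtr1 and Ada are the widest.

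The histamine receptors differed less. Hrh1 stood at 0.0985 in the KO-labelled library and 0.0859 in the WT-labelled library, a ratio of 1.15 (0.911 to 1.45). Hrh2 stood at 0.0904 and 0.0821, a ratio of 1.1 (0.867 to 1.4), and Hrh3 at 0.115 and 0.128, a ratio of 0.901 (0.738 to 1.1). The 2 genes below the floor were too thinly counted to order the libraries. Hcrtr1 stood at 0.00302 and 0.00697, a ratio of 0.433 (0.123 to 1.33), and Ada at 0.00926 and 0.00813, a ratio of 1.14 (0.515 to 2.59). A difference was not detectable at this depth for these 5 genes.

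None of the 6 genes above the floor passed the threshold set for a difference between the libraries. A gene was counted as apart at 1.5-fold or more on log2(mean + 0.01), a scale that understates the change of low genes. Of the 6 genes above the floor, 0 were higher and 0 lower by that much in the KO-labelled library, while 2.92% of all 12003 genes above the floor were higher and 6.91% lower, 9.82% in all. At a log2 difference of 0.32, 1 of the 6 was lower (Adora1) and 0 were higher, against 19.3% and 9.46% of all genes, 28.7% in all. On that scale 8.34% of all genes were as low as Adora1, at -0.54, or lower, and 11.6% as high as Hcrtr2, at 0.28, or higher. The median log2 ratio of the 6 was 0.15, with 4 higher and 2 lower, beside -0.061 over all genes, of which 4900 were higher and 7103 lower.

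The share of nuclei in each cluster was estimated for each library from values equal to exactly 1 UMI, which gave the ratio expected from cluster make-up. For Adora1 the expected log2 ratio was -0.17 against -0.54 observed, and the expected ratio of 0.884 lay outside the counting interval of the observed one (0.561 to 0.806). Oligodendrocyte-like cluster 8, with 6.9% of the Adora1 signal, took 1.93% of the nuclei in the KO-labelled library and 6.03% in the WT-labelled library, and astrocyte-like cluster 14, with 3.4%, took 1.12% and 3.4%. These shares are uncertain: the estimate used here put 29.1% of cluster 8 and 29.8% of cluster 14 in the KO-labelled library, while a least squares estimate put 8.66% and 6.59% there and gave -0.24 as the expected log2 ratio of Adora1. For Adk the expected log2 ratio was 0.041 (0.10 by least squares) against 0.28, and the expected ratio of 1.03 lay below the interval of 1.15 to 1.29. Cluster 17, with 7.74% of the Adk signal, took 2.03% and 1.01% of the nuclei, and cluster 14, with 5.93%, went the other way as above. For Hcrtr2 the expected log2 ratio was 0.052 (0.14 by least squares) against 0.28, with the expected ratio of 1.04 inside the interval of 1.02 to 1.49. Hrh1 was expected at -0.12 (-0.28 by least squares) and observed at 0.18, Hrh2 at 0.055 and 0.12, and Hrh3 at -0.11 and -0.14. Since cluster means pool both libraries, the expected ratio includes part of any difference inside a cluster, which could not be measured by itself. Fewer nuclei of a type and less RNA per nucleus cannot be told apart in the library means.

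**Figure D4:**
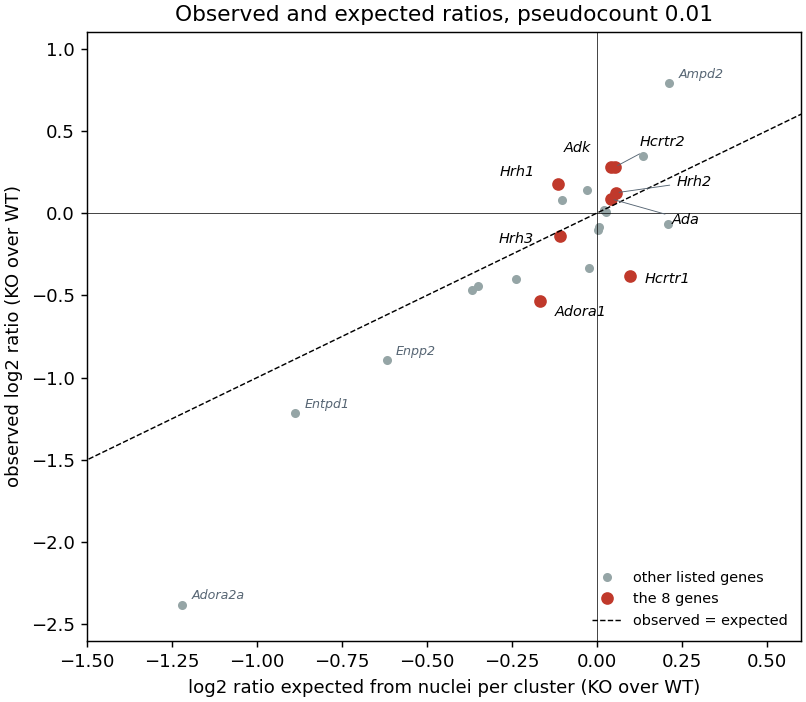
Observed log2 ratio, KO over wild-type, against the ratio expected from nuclei per cluster, both with a pseudocount of 0.01. Red points are the 8 genes, and the dashed line marks equality. Grey points are the other genes of the orexin, histamine and adenosine lists that reached the floor, with Adora2a added. G proteins and effectors are not shown. Adora1 lies at -0.54 observed and -0.17 expected, and Adora2a at -2.38 and -1.22.

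The gene of the orexin ligand and the gene for histamine synthesis were nearly absent. Being below the floor, they are named outside the rule for genes. Hcrt, the orexin precursor, rested on about 16 and 11 UMIs in the KO- and WT-labelled libraries, and Hdc, the decarboxylase that makes histamine, on about 6 and 8. Of the 5 genes of the orexin list, Hcrtr2 and Qrfpr, the receptor for the peptide QRFP, lay above the floor, and Qrfpr had a ratio of 0.947 (0.715 to 1.26). Of the 10 histamine genes, 5 lay above it, 2 higher and 3 lower in the KO-labelled library, with a median log2 ratio of -0.083 and 0 past 1.5-fold. Hnmt, the methyltransferase that inactivates histamine in brain, stood at 0.264 and 0.281, a ratio of 0.942 (0.825 to 1.08). Maob, a monoamine oxidase that acts on the methylated product, was 1.39-fold lower (1.02 to 1.91), and astrocyte-like cluster 14 held 21.1% of its signal. Its log2 ratio was -0.40 observed and -0.24 expected (-0.42 by least squares).

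The other adenosine receptors lay below the floor and had lower means in the KO-labelled library. Adora2a, the Gs-coupled adenosine receptor typical of striatal neurons, stood at 0.0072 and 0.0795, 11-fold lower (6.21 to 21.4), and striatal-like cluster 6 held 58.5% of its signal. That cluster took 1.41% of the nuclei in the KO-labelled library and 10.4% in the WT-labelled library. The estimate from 1-UMI values put 14.8% of its nuclei in the KO-labelled library. Least squares placed none of them there, which is the lower bound of that estimate. The log2 ratio of Adora2a was -2.38 observed and -1.22 expected (-1.72 by least squares). Adora2a is also 1 of the striatal markers. Adora2b stood at 0.00251 and 0.0116 on about 6 and 26 UMIs, a ratio of 0.216 (0.0583 to 0.629). Adora3, named outside the rule, stood at 0.00234 and 0.00581, a ratio of 0.403 (0.0938 to 1.42) that included 1, and microglia-like cluster 18 held 35% of its signal.

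Genes that form, convert or move adenosine were mixed. Of 23 listed, 13 lay above the floor, 7 higher and 6 lower in the KO-labelled library, with a median log2 ratio of 0.0068 beside -0.061 for all genes. With the libraries scaled without mitochondrial genes and Malat1 the balance turned, to 5 higher and 8 lower with a median of -0.038. Past 1.5-fold, 1 of the 13 was higher and 2 were lower, against 2.92% and 6.91% of all genes above the floor. Ampd2, an AMP deaminase, stood at 0.383 and 0.217, a ratio of 1.76 (1.55 to 2.02). It was highest in inhibitory-like cluster 4, which took 11.3% of the nuclei in the KO-labelled library and 3.33% in the WT-labelled library, and its log2 ratio was 0.79 observed and 0.21 expected (0.33 by least squares).

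Entpd1, the ectonucleotidase CD39 that hydrolyses extracellular ATP, was 2.52-fold lower (2.03 to 3.14), and microglia-like cluster 18 held 49.9% of its signal. Enpp2, which encodes autotaxin, was 1.87-fold lower (1.75 to 1.99), and oligodendrocyte-like cluster 8 held 33.3% of its signal. The observed log2 ratio of Entpd1, -1.22, lay between the expected ones of -0.89 and, by least squares, -1.36. That of Enpp2, -0.89, likewise lay between -0.62 and -1.12. Nt5e, the ecto-5'-nucleotidase CD73 that makes adenosine from AMP, had a ratio of 1.06 (0.887 to 1.26). The equilibrative nucleoside transporters Slc29a1 and Slc29a2 had ratios of 0.766 (0.588 to 0.998) and 1.33 (0.967 to 1.85). Nt5c2, Adal, Ahcyl1 and Dpp4 had ratios between 0.925 and 1.1, while Entpd3 and Ampd3 had 0.708 (0.554 to 0.903) and 0.706 (0.583 to 0.853). Their expected ratios of 0.762 and 0.761 lay inside these intervals. The log2 ratio of Entpd3 was -0.45 observed and -0.35 expected (-0.44 by least squares), and that of Ampd3 -0.47 and -0.37 (-0.44). Below the floor but past 1.5-fold, Pnp, the phosphorylase that acts on inosine, was 2.17-fold lower (1.39 to 3.45), Slc29a3 2.21-fold lower (1.56 to 3.18) and Entpd2 2.28-fold lower (1.2 to 4.51). The log2 ratio of Pnp was -0.81 observed and -0.25 expected (-0.53 by least squares). For Slc29a3 these were -0.92 and -0.46 (-0.58), and for Entpd2 -0.67 and -0.59 (-1.11).

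Among G proteins and effectors that such receptors can engage, 21 of 22 lay above the floor, 11 higher and 10 lower in the KO-labelled library, with a median log2 ratio of 0.0053. Of all genes past the floor, 4900 stood higher and 7103 lower. With the libraries scaled without mitochondrial genes and Malat1, 9 were higher and 12 lower and the median was -0.039. Past 1.5-fold, 3 of the 21 were higher and 4 lower, against 2.92% and 6.91% of all genes. The higher ones were Kcnj6, the GIRK2 subunit of potassium channels opened by Gi-coupled receptors, with a ratio of 1.58 (1.49 to 1.67), the cation channel Trpc5 with 1.51 (1.41 to 1.61) and the adenylate cyclase Adcy8 with 1.51 (1.42 to 1.61). Of the lower ones, the adenylate cyclase Adcy5 was 2.32-fold lower (2.07 to 2.61), the regulator of G protein signalling Rgs4 1.88-fold (1.56 to 2.27), the G protein alpha subunit Gnai2 1.78-fold (1.5 to 2.11) and the GIRK3 subunit Kcnj9 1.56-fold (1.34 to 1.82). For Adcy5 and Adcy8 the observed log2 ratios of -1.18 and 0.59 lay between the 2 estimates expected from nuclei per cluster, -0.97 and, by least squares, -1.31 for Adcy5, and 0.37 and 0.65 for Adcy8. For the others the observed ratio lay farther from 0 than both estimates. Rgs4 was observed at -0.85 and expected at -0.18 (-0.28 by least squares), Gnai2 at -0.78 and -0.32 (-0.54), and Kcnj9 at -0.61 and -0.025 (-0.11). Kcnj6 was observed at 0.66 and expected at 0.26 (0.36), and Trpc5 at 0.59 and 0.16 (0.19). The part of glial, striatal and bulb nuclei in these differences beyond those values was not tested.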

How the data were processed

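Single-nucleus libraries came from the 3' v3.1 kit of 10x Genomics, per the labels' protocols, and the genome build was mm10, per the submitters' processing notes. The sources used here do not give the aligner, the counting tool and its strand setting, the filters, the treatment of doublets or the clustering method. The authors deposited a linear signal, the average normalized expression of 31053 genes in each library and in 23 clusters. Each column sums to 10000. The table holds no counts and no values per nucleus.

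Nuclei per column were solved from the table, since the nuclei-weighted library columns and cluster columns must have equal sums (whole numbers to within 4.2e-08). Cluster values equal to 1 UMI in 1 nucleus to within 0.0001 gave depths (20328 values), and 9338 of them, from genes listed in at most 10 clusters, could be placed in 1 library. Weighted by reciprocal depth, with a common odds factor, these gave each cluster's share per library. Intervals at 95% are Poisson for means and Clopper-Pearson for ratios, on UMI numbers estimated from the harmonic mean depth. UMI numbers printed in the text come from the mean depth and are larger than those behind the intervals. The steps were also run on simulated data, whose outcome is not given here. Within a cluster the simulation drew depths alike for both libraries, so it could not check the effect of a depth difference between them. Python 3.11.15, numpy 2.4.6, scipy 1.17.1 and pandas 2.3.3 were used.

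The genes and lists were chosen with earlier results of these data known. Named genes are the 8 genes, the other listed orexin, histamine and adenosine genes above the floor or past 1.5-fold, listed G proteins and effectors past 1.5-fold, the 3 genes most like each of the 8, and leading genes of the highest cluster. A cluster name needed at least 3 raised markers. The search for CACGTT was added after the data were seen. Gene positions are from the GENCODE M21 annotation. Where Hcrtr2, Hrh2, Hrh3 and Adora1 overlap another gene, the other gene, which lies on the opposite strand, had at most 7 UMIs in a library. Adk overlaps Gm26372, annotated as misc_RNA on the same strand, for which no value was used here. Alternatives changed the scaling, the pseudocount, the threshold, the floor, the reference for cluster levels, the estimate of nuclei per cluster and the correlation.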

Additional observations from a re-analysis of the deposited data

How the results depend on the processing

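Of the alternative values of the main results, 80 stayed within counting error, or within 1.5 times a count, and 6 moved. With a pseudocount of 1 the log2 ratio became -0.074 for Adora1 and 0.17 for Adk. At a log2 threshold of 0.32, 1 of the 6 genes above the floor was lower in place of 0. Against the nuclei-weighted mean of the other clusters rather than their median, the highest cluster of Hcrtr2 was 11.3-fold over them in place of 19.7, that of Hrh1 3.69-fold in place of 8.6 and that of Adk 5.21-fold in place of 6.06. None of the 8 genes changed direction between the libraries under the alternative scalings. These multiply all genes of a library by the same factor. The factor was 1.05 for the KO-labelled library with median ratio scaling. Without mitochondrial genes and Malat1 it was 1.11 for the KO-labelled and 1.15 for the WT-labelled library. A pseudocount cannot change a direction, so it was no check of direction. With no pseudocount the log2 ratio of Hcrtr1 was -1.21 in place of -0.38. Least squares estimates of nuclei per cluster moved the expected ratio past the observed one for Maob, Entpd1, Entpd2, Enpp2, Adcy5 and Adcy8 among the genes whose expected ratio is given. The least squares share in the KO-labelled library reached its upper bound, 100%, for clusters 4, 21 and 22, and its lower bound for cluster 6. Subtraction of the expected ratio, added after the data were seen, left -0.37 for Adora1, 0.24 for Adk and 0.23 for Hcrtr2. Without the floor more listed genes were counted: the adenosine receptors had 4 lower in place of 1, the formation and clearance list 12 higher and 11 lower in place of 7 and 6, the histamine list 6 lower in place of 3 and the orexin list 2 in each direction in place of 1. No paired analysis was possible because each genotype has 1 library, so no replicate could be left out either. Depth limits Hcrtr1 and Ada most.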
